A study of Mus musculus with 14 samples.

Results

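The 7 genes described here, *Serpinb9*, *Serpinb9b*, *Serpinb1a*, *Serpinb2*, *Serpinb6a*, *Serpinb6b* and *Serpinb8*, are clade B serpins (SERPINB9, SERPINB9B, SERPINB1A, SERPINB2, SERPINB6A, SERPINB6B and SERPINB8 in the count table), and they were followed in sorted intestinal macrophages of mice that lack the IL-10 receptor. *Serpinb9* was chosen because it was among the genes most clearly higher in both *Il10ra*-deficient genotypes than in WT mice, so its difference from WT is given as a description with no test. The other 6 were chosen as members of the same clade, with earlier results of these data known. They make up 7 of the 24982 genes in the count table, and 6 of the 7 passed the filter on low counts. *Serpinb9b* did not pass it and is described by its reads alone.

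RNA was sequenced from macrophages sorted from the lamina propria of the colon and cecum of C57BL/6 mice at 5 weeks of age, with 1 library per mouse. The sort kept live cells that carried CD45, CD64, CD11b and MHCII and lacked Ly6G, CD103 and Ly6C. All mice, controls included, carried *Cdcs1*, a locus that raises susceptibility to colitis. The genotypes were WT (*Cdcs1* alone), IL10RAKO (*Cdcs1* with *Il10ra* -/-), DKO (*Cdcs1* with *Il10ra* -/- and *Ccr2* -/-) and CCR2KO (*Cdcs1* with *Ccr2* -/-), and the comparisons used 4 mice of each of the first 3 genotypes. A further WT library (mouse 11) and the 1 CCR2KO library (mouse 6) were outside the comparisons, and their values are given beside those of the members. Both deletions were carried in the germline, so every cell type of these mice lacked the gene, and the labels gave no sex, litter or batch for a library. *Il10ra*, the targeted receptor, was measured at 284 ± 70.1 CPM (read counts scaled to a common library size; SD, n = 4) in WT libraries, and it was down to 7.41 ± 2.67 in IL10RAKO and to 5.31 ± 2.12 in DKO, while WT mouse 11 had 307 CPM and the CCR2KO mouse 182. *Ccr2* was measured at 593 ± 80.0 CPM in WT and 476 ± 128 in IL10RAKO libraries, against 5.67 ± 1.22 in DKO, 759 in WT mouse 11 and 4.30 in the CCR2KO mouse.

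Serpins are protease inhibitors that act as suicide substrates. The target protease cleaves an exposed reactive loop, and the serpin then changes shape and traps the enzyme in an inactive complex. Clade B members, the ovalbumin-like serpins, have no classical secretion signal and work mostly inside cells. They are known for protecting leukocytes and their neighbours from proteases that leak from granules and lysosomes. Serpinb9 inhibits granzyme B, Serpinb1a inhibits the neutrophil proteases elastase, cathepsin G and proteinase 3, Serpinb6a inhibits cathepsin G, and Serpinb2, also called plasminogen activator inhibitor type 2, inhibits urokinase. The human counterpart of Serpinb8 inhibits furin. *Serpinb9b* and *Serpinb6b* are close paralogues of *Serpinb9* and *Serpinb6a*.

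The total counts of the 12 compared libraries ranged from 13085287 to 21216468, and the floor of 3 reads corresponded to 0.124 to 0.211 CPM. WT mouse 11, outside the comparisons, had 12153000 counts and 11670 genes detected, the fewest of all libraries. The 6 epithelial markers examined summed to 2497 CPM in it, against 44.5 to 982 across the compared WT mice. Its values may therefore not be those of a typical WT library. CPM were scaled with the trimmed mean of M values (TMM), and the scaling factors lay at 1.09 to 1.18 for WT mice, 0.851 to 0.972 for IL10RAKO mice and 0.893 to 1.01 for DKO mice. The 10 macrophage markers examined (among them *Fcgr1*, *Csf1r*, *Cx3cr1* and *C1qa*) had reads in every genotype, and their summed level was 21699 to 26886 CPM across WT mice, 28045 to 39044 across IL10RAKO mice and 23133 to 31122 across DKO mice. Most of that sum came from *H2-Ab1*, an MHCII gene, with a mean of 15868 CPM in WT mice, 24213 in IL10RAKO mice and 20216 in DKO mice. Against WT, *Fcgr1* and *H2-Ab1* were higher in IL10RAKO, and in DKO *Mertk* was higher and *Cx3cr1* (389 CPM in WT, 169 in DKO) and *Adgre1* (740 and 358 CPM) were lower. In bulk RNA, a lower level from fewer cells of a type cannot be told apart from less RNA per cell. Reads carried no molecular identifiers, the floors cover counting error only, and p-values measure the spread between these mice.

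The members lie in 2 gene clusters of the mouse genome (GRCm38, GENCODE positions). *Serpinb1a* (chr13:32842092-32851185, minus strand), *Serpinb6b* (chr13:32965209-32979067, plus strand), *Serpinb9* (chr13:33003250-33017957, plus strand), *Serpinb9b* (chr13:33027416-33041884, plus strand) and *Serpinb6a* (chr13:33917918-34002794, minus strand) are among 15 clade B genes within 1.16 Mb of chromosome 13. *Serpinb2* (chr1:107511423-107535478, plus strand) and *Serpinb8* (chr1:107590006-107610484, plus strand) are among 12 within 0.749 Mb of chromosome 1. *Serpinb9* lies between *Serpinb6b*, 24.2 kb before it, and *Serpinb9b*, 9.46 kb after it. *Serpinb9*, *Serpinb1a*, *Serpinb6b* and *Serpinb8* had no stretch of 100 transcript bases in common with another annotated gene. For *Serpinb6a*, 19.9% of such stretches also occurred in transcripts of 1110046J04Rik, *Nqo2* or *Ripk1*, which overlap it on the opposite strand, and for *Serpinb2* 7.52% occurred in *Serpinb10*, so reads from these stretches are uncertain between the genes. Whether counting used strand was not given in the sources used here.

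The 250 bases before the start sites of *Serpinb9*, *Serpinb9b* and *Serpinb6a* are shown because the data set a large difference in reads between the first pair, which lie side by side, and an opposite direction of change between *Serpinb9* and *Serpinb6a*. They are from RefSeq (GRCm38.p6), at chr13:33004291-33004540 (plus strand), chr13:33027164-33027413 (plus strand) and chr13:34002795-34003044 (minus strand), each read 5′ to 3′ towards its gene. The RefSeq start of *Serpinb9* lies inside the GENCODE gene. *Serpinb6a* has a further RefSeq start, and the 250 bases before it (chr13:33936084-33936333, minus strand) are not shown. Capitals mark a match to the core of the interferon-stimulated response element, which is GAAA, any 2 bases and GAAA again, here read on the opposite strand, in *Serpinb9* and *Serpinb6a*, and the aligned stretch, which is no match, in *Serpinb9b*.
Serpinb9: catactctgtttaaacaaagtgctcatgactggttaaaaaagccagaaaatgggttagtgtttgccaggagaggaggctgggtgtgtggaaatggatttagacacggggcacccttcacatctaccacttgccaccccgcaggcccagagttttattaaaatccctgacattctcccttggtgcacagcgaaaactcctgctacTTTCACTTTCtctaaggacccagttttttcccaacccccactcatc
Serpinb9b: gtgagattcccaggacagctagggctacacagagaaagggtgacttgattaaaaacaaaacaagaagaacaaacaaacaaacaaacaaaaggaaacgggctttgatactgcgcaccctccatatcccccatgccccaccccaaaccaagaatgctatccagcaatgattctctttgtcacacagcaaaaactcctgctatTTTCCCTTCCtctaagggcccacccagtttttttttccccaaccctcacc
Serpinb6a: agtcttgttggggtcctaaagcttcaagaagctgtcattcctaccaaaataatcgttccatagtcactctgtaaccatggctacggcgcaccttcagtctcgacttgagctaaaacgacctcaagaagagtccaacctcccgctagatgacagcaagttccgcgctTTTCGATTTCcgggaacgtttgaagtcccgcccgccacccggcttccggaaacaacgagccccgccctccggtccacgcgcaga

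Windows from 250 bases before to 50 bases after a start were available for 6 of the 7 members (8 windows, none for *Serpinb1a*), and 4 motifs were searched on both strands. The interferon-stimulated response element core occurred in 2 of the 8 windows and in 3.44% of 32851 mouse windows of the same length. In *Serpinb9* it read TTTCACTTTC at 46 to 37 bases before the start. In the aligned stretch of *Serpinb9b*, TTTCCCTTCC, the substitutions from *Serpinb9* were A5C and T9C, with positions counted from 1 at the 5′ end of the 10-letter stretch. The windows of *Serpinb9* and *Serpinb9b* were identical at 73.9% of the positions aligned without a gap (198 identical and 70 mismatched). A further 64 positions were gapped and are not in that share. In *Serpinb6a* the match was TTTCGATTTC at 84 to 75 bases before the start, and it overlapped a match to the gamma-activated sequence TTCNNNGAA, which occurred in 8.30% of all windows. That sequence also occurred once more in the same *Serpinb6a* window, 21 to 29 bases after the start, and once in each of the 2 *Serpinb2* windows. The AP-1 motif TGANTCA (7.81% of all windows) occurred in the windows of *Serpinb2* and *Serpinb8*, and the CCAAT box (37.4% of all windows) in 1 window each of *Serpinb2* and *Serpinb6a*. The *Serpinb6b* window held none of the 4. The further *Serpinb6a* window, not shown, held only the CCAAT box, with no interferon-stimulated response element core. These matches describe letters only, and no binding was measured.

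*Serpinb9*, the granzyme B inhibitor, was low in every WT library and high in every *Il10ra*-deficient library. In WT mice 4, 5, 10 and 13 it was measured at 13.1, 18.3, 14.6 and 15.2 CPM. In IL10RAKO mice 1, 2, 7 and 8 the values were 94.3, 116, 113 and 113 CPM, and in DKO mice 3, 9, 12 and 14 they were 175, 129, 130 and 123 CPM. The lowest *Il10ra*-deficient library stood above the highest WT library, and WT mouse 11 (21.8 CPM) and the CCR2KO mouse (17.4 CPM) were near the WT group. The means were 15.3 ± 2.21, 109 ± 9.97 and 139 ± 24.2 CPM (SD, n = 4 each). *Serpinb9* was thus 7.12-fold higher in IL10RAKO than in WT (log2 fold change 2.83, SE 0.172, 95% interval 2.46 to 3.20) and 9.09-fold higher in DKO than in WT (3.18, SE 0.175, 2.81 to 3.56), the contrasts that chose it. The WT mice were the same in both contrasts.

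DKO against IL10RAKO had no part in the choice and was tested. *Serpinb9* was 1.28-fold higher in DKO (log2 fold change 0.35, SE 0.160, 95% interval 0.01 to 0.69), and the 4 DKO libraries stood above the 4 IL10RAKO libraries without overlap. The unadjusted p of edgeR's quasi-likelihood test was 0.0447 and the adjusted p over all genes was 1.00, so the difference did not pass. The DKO value of mouse 3 stood apart from the other 3, and without that mouse the log2 difference was 0.22. Of all genes tested, 2.41% did not overlap between these 2 genotypes and 0.0457% passed the test (0.0152% higher and 0.0305% lower in DKO).

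*Serpinb9b*, the neighbour and close paralogue of *Serpinb9*, was at or near 0 in every library. It had 10 reads in WT mouse 5 (0.586 CPM), 8 in IL10RAKO mouse 1 (0.557 CPM), 9 in DKO mouse 3 (0.497 CPM) and 3 in DKO mouse 9 (0.187 CPM). The other 10 of the 14 libraries had 0 reads, which allows up to 3 reads or 0.124 to 0.220 CPM per library. No genotype stood out, and the level was too low for a comparison.

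**Figure D1:**
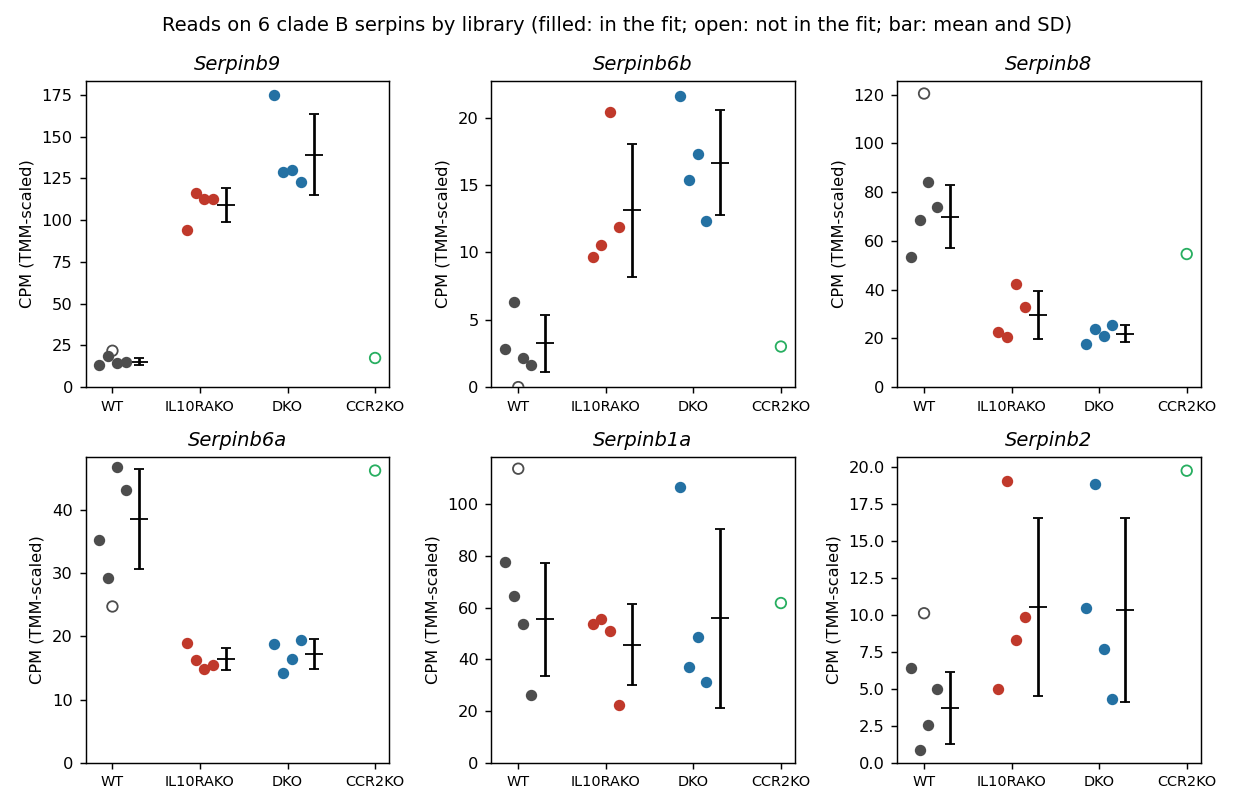
Level of the 6 clade B serpins tested in each library, in TMM-scaled CPM (y axis, 1 panel per gene), by genotype (x axis); filled points are the compared libraries, open points are WT mouse 11 and the CCR2KO mouse, and bars give the mean and SD of the 4 compared mice. *Serpinb9* lies at 13.1 to 18.3 CPM in the compared WT libraries and at 94.3 to 175 CPM in the *Il10ra*-deficient ones, while *Serpinb8* and *Serpinb6a* lie lower there than in WT.

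The members other than *Serpinb9* moved in both directions against WT. Of the 5 tested, 3 passed in IL10RAKO against WT, 1 higher and 2 lower, where 15.8% of all genes tested passed (8.7% higher and 7.1% lower). The count in DKO against WT was also 3, with 1 higher and 2 lower, where 18.5% of all genes passed (9.23% higher and 9.22% lower). These 3 genes, *Serpinb6b*, *Serpinb8* and *Serpinb6a*, also had no overlap with WT in either contrast, against 18.2% and 22.2% of all genes. The median log2 fold change of the 5 was -0.28 in IL10RAKO and 0.01 in DKO, beside -0.07 and -0.06 over all genes.

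*Serpinb6b*, the paralogue of *Serpinb6a*, was the member that rose beside *Serpinb9*. It was measured at 2.86, 6.33, 2.15 and 1.66 CPM in WT mice 4, 5, 10 and 13, at 9.67, 10.6, 20.4 and 11.9 CPM in IL10RAKO mice 1, 2, 7 and 8, and at 21.6, 15.4, 17.3 and 12.4 CPM in DKO mice 3, 9, 12 and 14. Every *Il10ra*-deficient library was above every WT library, and the 2 genotypes overlapped each other. *Serpinb6b* was 4.05-fold higher in IL10RAKO than in WT (log2 fold change 2.02, SE 0.394, adjusted p = 0.00292) and 5.12-fold higher in DKO (2.36, SE 0.398, adjusted p = 0.000856). WT mouse 11 had 0 reads of the gene and the CCR2KO mouse 3.01 CPM. With mouse 11, the library with the fewest genes detected, in the WT group, the IL10RAKO call was lost (2.33, adjusted p = 0.0502).

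*Serpinb6a*, the cathepsin G inhibitor, fell. In WT mice 4, 5, 10 and 13 it was measured at 35.2, 29.2, 46.7 and 43.2 CPM. The IL10RAKO values were 18.9, 16.3, 14.9 and 15.5 CPM in mice 1, 2, 7 and 8, and the DKO values 18.7, 14.1, 16.4 and 19.5 CPM in mice 3, 9, 12 and 14. All 8 *Il10ra*-deficient libraries were below all WT libraries, WT mouse 11 (24.7 CPM) included, and the CCR2KO mouse had 46.2 CPM. *Serpinb6a* was 2.35-fold lower in IL10RAKO than in WT (log2 fold change -1.23, SE 0.187, adjusted p = 0.000425) and 2.24-fold lower in DKO (-1.17, SE 0.187, adjusted p = 0.00058). Of the overlapping opposite-strand genes, *Nqo2* had log2 fold changes of 0.71 (adjusted p = 0.133) and 0.79 (adjusted p = 0.0871) and *Ripk1* of 0.35 (adjusted p = 0.116) and 0.43 (adjusted p = 0.0498), the opposite sign to *Serpinb6a*. The other overlapping gene, 1110046J04Rik, was not among the genes tested. Fold changes of whole genes cannot show how reads of the shared stretches were assigned, and this was not tested.

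*Serpinb8*, whose human counterpart inhibits furin, also fell. The WT values of mice 4, 5, 10 and 13 were 53.4, 68.5, 84.0 and 74.0 CPM. In IL10RAKO mice 1, 2, 7 and 8 it was measured at 22.7, 20.5, 42.2 and 32.7 CPM, and in DKO mice 3, 9, 12 and 14 at 17.9, 23.8, 20.9 and 25.4 CPM. The WT libraries were all above the *Il10ra*-deficient ones, with WT mouse 11 higher still at 120 CPM and the CCR2KO mouse at 54.6 CPM. *Serpinb8* was 2.37-fold lower in IL10RAKO than in WT (log2 fold change -1.24, SE 0.233, adjusted p = 0.00212) and 3.18-fold lower in DKO (-1.67, SE 0.236, adjusted p = 0.00021).

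*Serpinb2*, the urokinase inhibitor, varied widely between mice. It was measured at 6.40, 0.879, 2.57 and 4.99 CPM in WT mice 4, 5, 10 and 13, at 5.01, 19.1, 8.29 and 9.84 CPM in IL10RAKO mice 1, 2, 7 and 8, and at 10.4, 18.9, 7.66 and 4.30 CPM in DKO mice 3, 9, 12 and 14. The highest WT library overlapped the lowest library of each *Il10ra*-deficient genotype. The log2 fold changes against WT were 1.51 in IL10RAKO (SE 0.578, adjusted p = 0.0969) and 1.47 in DKO (SE 0.577, adjusted p = 0.0938), and neither passed. They passed in DESeq2 (adjusted p = 0.0414 in both contrasts) and without WT mouse 4 (adjusted p = 0.0452 and 0.0435). WT mouse 11 had 10.1 CPM, inside the range of the *Il10ra*-deficient mice, and the CCR2KO mouse had 19.7 CPM, just above the highest of them.

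*Serpinb1a*, the inhibitor of neutrophil proteases, did not pass in any contrast. Its WT values were 77.8, 64.4, 53.7 and 26.3 CPM in mice 4, 5, 10 and 13. The IL10RAKO values were 53.9, 55.8, 51.0 and 22.3 CPM in mice 1, 2, 7 and 8, and the DKO values 107, 37.2, 48.6 and 31.1 CPM in mice 3, 9, 12 and 14. All groups overlapped, and WT mouse 11 was the highest library at 114 CPM. The log2 fold changes were -0.28 in IL10RAKO (95% interval -1.15 to 0.59, adjusted p = 0.694) and 0.01 in DKO (-0.86 to 0.88, adjusted p = 0.992).

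**Figure D2:**
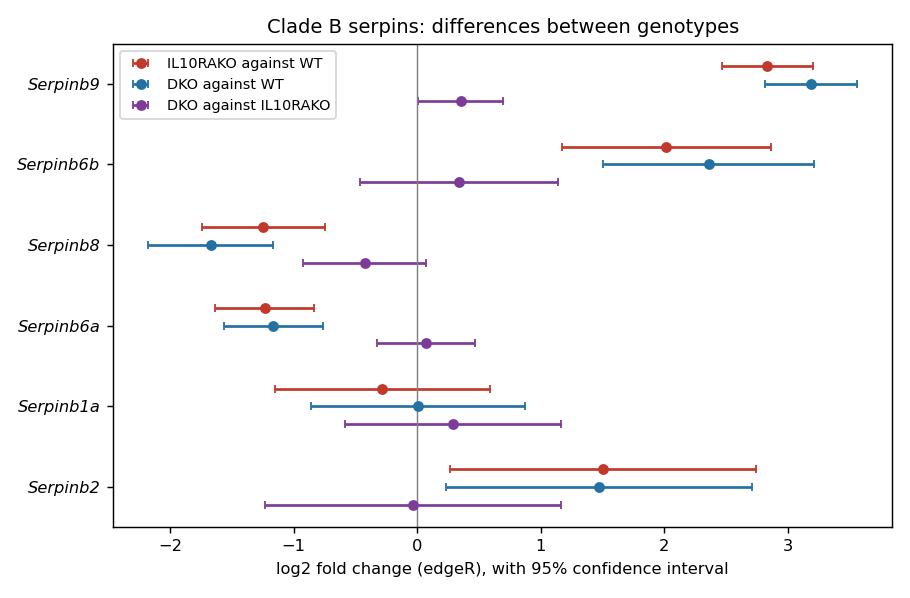
Log2 fold change of the 6 clade B serpins tested (rows) in IL10RAKO against WT, DKO against WT and DKO against IL10RAKO, as points with 95% intervals from the edgeR fit (x axis, log2 scale). *Serpinb9* and *Serpinb6b* lie above 0 and *Serpinb6a* and *Serpinb8* below 0 against WT, while between DKO and IL10RAKO the estimates run from -0.43 to 0.35.

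Between DKO and IL10RAKO, the contrast that bears on *Ccr2* in mice without *Il10ra*, 0 of the 6 members tested passed in edgeR and 0 in DESeq2. At an unadjusted p under 0.05 the count was 1, *Serpinb9*, which was also the 1 member without overlap. Of all genes tested, 2.95% had an unadjusted p under 0.05 and 2.41% did not overlap, so 1 of 6 is not read as a result about the members. *Serpinb8* was -0.43 on the log2 scale (95% interval -0.92 to 0.07), *Serpinb6b* 0.34 (-0.46 to 1.14), *Serpinb1a* 0.29 (-0.58 to 1.16), *Serpinb6a* 0.07 (-0.33 to 0.47) and *Serpinb2* -0.03 (-1.23 to 1.17). The interval of *Serpinb6a* was the narrowest of these 5 and that of *Serpinb2* the widest. The median over the 6 was 0.18, beside -0.01 over all genes.

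The order of the members within the macrophages changed with genotype. Per kilobase of exon, the mean level in WT was highest for *Serpinb1a* (24.1 ± 9.49 CPM per kb) and *Serpinb8* (14.6 ± 2.67), whose ranges overlapped, then *Serpinb6a* (7.13 ± 1.46), *Serpinb9* (4.38 ± 0.633), *Serpinb2* (1.58 ± 1.05) and *Serpinb6b* (1.44 ± 0.933). In IL10RAKO libraries *Serpinb9* came to the top of that order at 31.2 ± 2.85 CPM per kb, above the range of *Serpinb1a* (19.9 ± 6.85), and the levels of *Serpinb8* (6.15 ± 2.08), *Serpinb6b* (5.81 ± 2.18), *Serpinb2* (4.49 ± 2.56) and *Serpinb6a* (3.03 ± 0.330) each overlapped the next. In DKO libraries *Serpinb9* was at 39.8 ± 6.92 and *Serpinb1a* at 24.3 ± 15.04 CPM per kb, with overlapping ranges, followed by *Serpinb6b* (7.37 ± 1.72), *Serpinb8* (4.59 ± 0.690), *Serpinb2* (4.39 ± 2.65) and *Serpinb6a* (3.18 ± 0.446). *Serpinb9b* was last in all 3. Exon lengths were the union of annotated exons. The higher place of *Serpinb9* in the *Il10ra*-deficient genotypes rests on its choice and is a description only.

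Shares and ratios of reads within a library need no scaling between libraries. *Serpinb9* made up 6.88% to 9.46% of the reads of all clade B genes in the compared WT libraries, 44.9% to 54.4% across IL10RAKO mice and 49.5% to 56.1% across DKO mice. *Serpinb8* made up a mean of 36.7% in WT, 13.0% in IL10RAKO and 8.79% in DKO, and *Serpinb6a* 20.3%, 7.31% and 6.71%. The ratio of *Serpinb9* to *Serpinb8* reads was 0.174 to 0.268 across WT mice, 2.68 to 5.68 across IL10RAKO mice and 4.85 to 9.79 across DKO mice, and it was 0.181 in WT mouse 11 and 0.319 in the CCR2KO mouse. The ratio of *Serpinb6b* to *Serpinb6a* reads was 0.0386 to 0.217 across WT mice, 0.511 to 1.37 across IL10RAKO mice and 0.635 to 1.16 across DKO mice. The share of *Serpinb9* and its ratio to *Serpinb8* rest on the choice of *Serpinb9*, and since shares sum to 100% a larger share of *Serpinb9* lowers those of the other members. The ratio of *Serpinb6b* to *Serpinb6a* does not involve *Serpinb9*, and none of these values was tested.

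**Figure D3:**
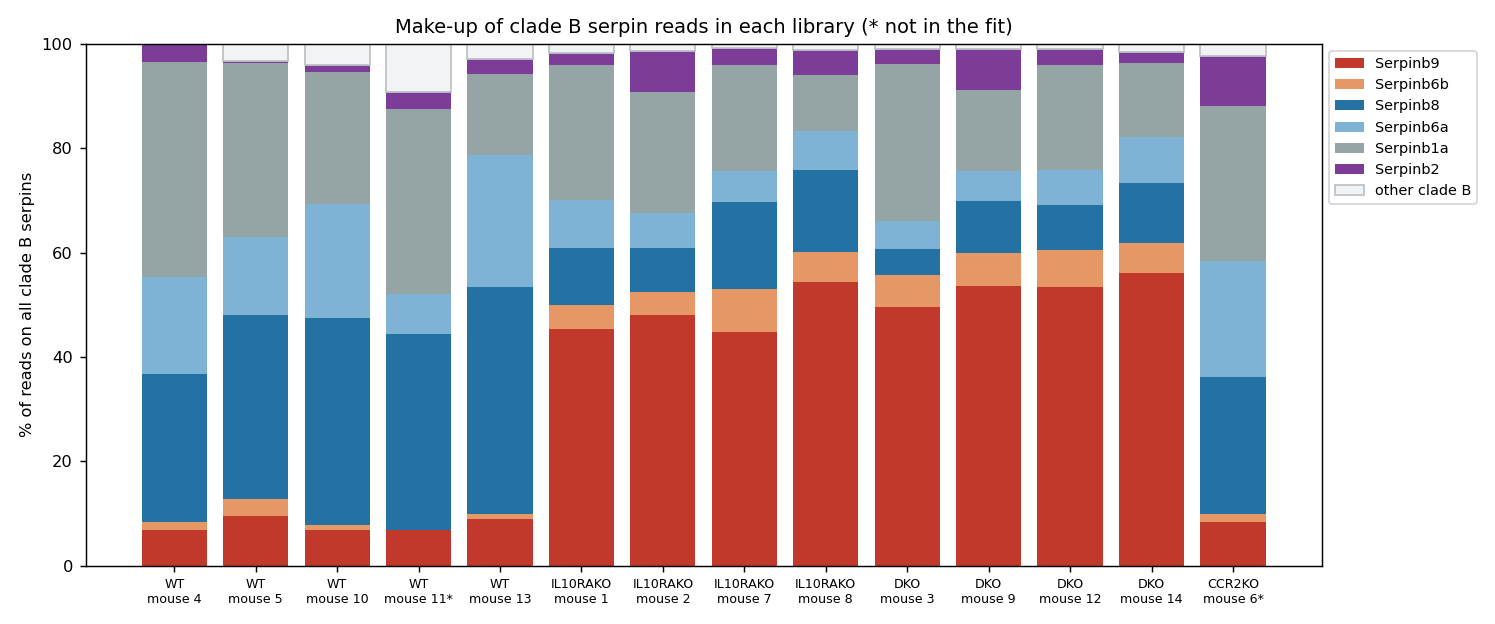
Share of the reads of all clade B genes taken by each of 6 members and by the rest of the clade, *Serpinb9b* included, in each library, in percent (y axis, stacked bars from 0), with libraries ordered by genotype; an asterisk marks the libraries outside the comparisons. *Serpinb9* takes 6.88% to 9.46% in the compared WT libraries and 44.9% to 56.1% in the *Il10ra*-deficient ones.

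The rest of the clade was nearly silent. Of 21 other clade B genes listed, 20 were in the table, 9 had reads in the 12 libraries and 4 were tested, and 0 passed in any contrast in edgeR or in DESeq2, with 0 at an unadjusted p under 0.05. *Serpinb1b*, a paralogue of *Serpinb1a*, had 15 reads in WT mouse 13 and 0 in the other 3 compared WT libraries, and means of 0.934 ± 0.319 CPM in IL10RAKO and 1.03 ± 0.0812 in DKO (log2 fold changes 1.96, adjusted p = 0.295, and 2.10, adjusted p = 0.249). *Serpinb5*, known as maspin and typical of epithelial cells, ranged from 0 to 170 reads in the compared WT libraries and had 402 reads in WT mouse 11. *Serpinb10* and *Serpinb12* had mean levels of 0.214 to 1.14 CPM in the 3 genotypes.

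Serpins of other clades also moved in both directions against WT. Of 30 listed and 9 tested, 2 were higher and 3 lower than WT in each of the 2 contrasts, and DESeq2 gave 5 lower in DKO. Over all genes tested, 8.7% were higher and 7.1% lower in IL10RAKO, and 9.23% and 9.22% in DKO. The pair that rose, *Serpina3g* and *Serpina3f*, are clade A genes of the expanded *Serpina3* family, whose close copies leave read assignment uncertain. *Serpina3g* had 19.4 ± 8.05 CPM in WT mice, 384 ± 70.0 in IL10RAKO mice (log2 fold change 4.30, adjusted p = 7.87e-07) and 453 ± 70.8 in DKO (4.54, adjusted p = 3.78e-07). *Serpina3f* was at 1.55 ± 1.24, 82.7 ± 12.4 and 92.9 ± 19.0 CPM. *Serping1*, the inhibitor of complement C1, was lower by 2.33 and 2.31 on the log2 scale and stood at 35.8 ± 13.2, 7.12 ± 1.91 and 7.20 ± 1.93 CPM. The other 2 that fell, named after their values were seen, were *Serpinh1*, a collagen chaperone (-3.41 and -3.28), and *Serpinf1* (-1.86 and -3.07). All 6 fibroblast markers examined, such as *Col1a1* and *Dcn*, were lower too, with a summed level of 294 to 577 CPM across WT mice, 14.99 to 53.7 across IL10RAKO mice and 16.1 to 67.0 across DKO mice, and their part in these 3 results was not tested.

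The proteases that the members are known to inhibit were followed beside them. Over all genes tested, 8.7% passed higher and 7.1% lower in IL10RAKO against WT, and 9.23% and 9.22% in DKO. The median log2 fold changes over all genes were -0.07 and -0.06. Counts near these shares are not read as results about a list. Among 13 genes of the granzyme and perforin list, 6 were tested, of which 1 rose in IL10RAKO and 2 in DKO (median log2 fold changes 1.25 and 1.14), and DESeq2 gave 3 higher in each. The genes that passed in edgeR were *Srgn* and *Ctsc*, and no granzyme gene or *Prf1* passed there. The 3 higher in DESeq2 include a granzyme gene or *Prf1*, since *Srgn* and *Ctsc* are the only other tested genes of the list. *Srgn*, the core protein of the granule proteoglycan that binds granzymes and is also abundant in macrophages, rose by 1.28 (adjusted p = 9.93e-05) and 0.88 (adjusted p = 0.00156). *Ctsc*, the lysosomal protease that activates granzymes and neutrophil proteases, rose in DKO (0.57, adjusted p = 0.0484) and had a value of 0.51 in IL10RAKO (adjusted p = 0.0873). *Gzmb*, the target of Serpinb9, had 2.67 ± 1.12 CPM in WT mice, 6.24 ± 6.01 in IL10RAKO mice and 7.02 ± 4.83 in DKO libraries, with log2 fold changes of 1.22 (adjusted p = 0.228) and 1.40 (adjusted p = 0.155). The CCR2KO mouse had 13.0 CPM of *Gzmb* and WT mouse 11 had 5.79 CPM. *Gzma*, which encodes granzyme A and was named after its values were seen, had 0.15 ± 0.30 CPM in WT mice, against 1.54 ± 1.13 in IL10RAKO mice and 1.62 ± 0.862 in DKO mice (3.43, adjusted p = 0.0837, and 3.50, adjusted p = 0.069). *Gzmm*, another granzyme gene named after its values were seen, lay in the other direction. It had 0.611 ± 0.328 CPM in WT mice, 0.0960 ± 0.0461 in IL10RAKO mice and 0.341 ± 0.215 in DKO mice. Its log2 fold change in IL10RAKO was -2.62 (edgeR adjusted p = 0.0573), with 4 to 25 reads per WT library and 1 to 2 per IL10RAKO library. *Prf1*, which encodes perforin, had 0 to 81 reads per library (1.44, adjusted p = 0.493, and 1.70, adjusted p = 0.391). The 10 T and NK cell markers had a summed level of 139 to 161 CPM across WT mice, 96.0 to 166 across IL10RAKO mice and 85.7 to 135 across DKO mice, with 1 higher and 1 lower of the 8 tested in each contrast with WT. *Cd4* carried most of that sum (111 CPM in WT mice, 62.0 in IL10RAKO mice and 59.4 in DKO mice) and was the lower gene in both contrasts. The authors cite earlier work in which macrophages carrying CD4 were the main type in the Ly6C-negative, MHCII-positive fraction. The sum is therefore not read as a level of T and NK cells. *Cd3d* had 1.04, 3.03 and 2.63 CPM and *Cd3e* 2.60, 1.15 and 0.789 CPM on average in WT, IL10RAKO and DKO, and neither passed against WT. The higher gene was *Klrd1* in IL10RAKO (12.6 CPM in WT and 23.4 in IL10RAKO) and *Nkg7* in DKO (1.86 CPM in WT, 7.48 in DKO), and *Nkg7* had 6.65 CPM in IL10RAKO (adjusted p = 0.0572). The part of T and NK cells in the granzyme values was not tested.

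Neutrophil serine proteases, the group that holds targets of Serpinb1a and Serpinb6a, had few or no reads. *Ctsg* had 0 reads in all compared WT and IL10RAKO libraries and 0 to 8 in DKO, and *Elane* had 0 reads in WT and at most 3 elsewhere. *Prtn3* was at 2.45 ± 1.46 CPM in WT mice (log2 fold changes -0.32, adjusted p = 0.761, and -0.88, adjusted p = 0.33). *Prss57*, named after its values were seen, was at 2.38 ± 1.23 CPM in WT mice (-0.37, adjusted p = 0.707, and -0.41, adjusted p = 0.662). Of the 4 listed, 2 were tested and 0 passed in edgeR, 0 in DESeq2 and 0 at an unadjusted p under 0.05. Of 7 neutrophil markers, 4 of the 5 tested were higher than WT in each contrast, where 8.7% and 9.23% of all genes tested were higher. Among them, *S100a9* had 0 reads, *Cxcr2* 0 to 4 and *S100a8* 0 to 11 per WT library. These genes passed the filter on low counts through the *Il10ra*-deficient libraries, so the count is not read as a result about the list. The summed level was 75.2 to 122 CPM across WT mice, 137 to 304 across IL10RAKO mice and 157 to 263 across DKO mice, mostly from *Csf3r*. *Mpo* was at 0 reads in WT and IL10RAKO.

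In the urokinase system of Serpinb2, the receptor rose and the enzyme did not pass. *Plaur*, the urokinase receptor, had 353 ± 67.4 CPM in WT mice, 1291 ± 146 in IL10RAKO mice (log2 fold change 1.87, adjusted p = 8.07e-06) and 1189 ± 182 in DKO (1.75, adjusted p = 1.37e-05). *Plau*, urokinase itself, was at 19.7 ± 12.2, 14.2 ± 7.50 and 8.34 ± 3.61 CPM (-0.47, adjusted p = 0.565, and -1.24, adjusted p = 0.0977). *S100a10*, a plasminogen receptor subunit, had a value of -0.44 in IL10RAKO (adjusted p = 0.186) and fell in DKO (-0.90, adjusted p = 0.00958). Of the 8 genes of this list, 7 were tested, with 1 higher in IL10RAKO, and 1 higher and 1 lower in DKO, where DESeq2 gave 1 higher and 3 lower. Over all genes tested, edgeR gave 8.7% higher and 7.1% lower in IL10RAKO, and 9.23% and 9.22% in DKO. The edgeR counts are not read as a result about the list.

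Among furin and the lysosomal cathepsins, all 10 listed were tested, and 2 rose in IL10RAKO and 4 in DKO, with 0 lower (median log2 fold changes 0.36 and 0.63). Of all genes tested, 8.7% and 9.23% were higher, with medians of -0.07 and -0.06. *Ctsc*, counted on the granzyme list as well, is among the 4. *Furin*, the proprotein convertase inhibited by human SERPINB8, had 118 ± 30.2 CPM in WT mice, 127 ± 61.6 in IL10RAKO mice and 191 ± 97.3 in DKO libraries (0.11, adjusted p = 0.893, and 0.69, adjusted p = 0.258). *Ctsz*, a lysosomal carboxypeptidase, rose by 1.07 (adjusted p = 0.000679) and 1.19 (adjusted p = 0.000272), and *Ctss*, which trims the invariant chain in antigen presentation, by 0.86 (adjusted p = 0.00729) and 0.78 (adjusted p = 0.0115). *Ctsd*, an aspartic protease of lysosomes, rose in DKO (0.79, adjusted p = 0.0244) and had a value of 0.35 in IL10RAKO (adjusted p = 0.318). Between DKO and IL10RAKO, 0 genes passed in any of these lists of serpins and proteases in edgeR or DESeq2, and 2 had an unadjusted p under 0.05.

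**Figure D4:**
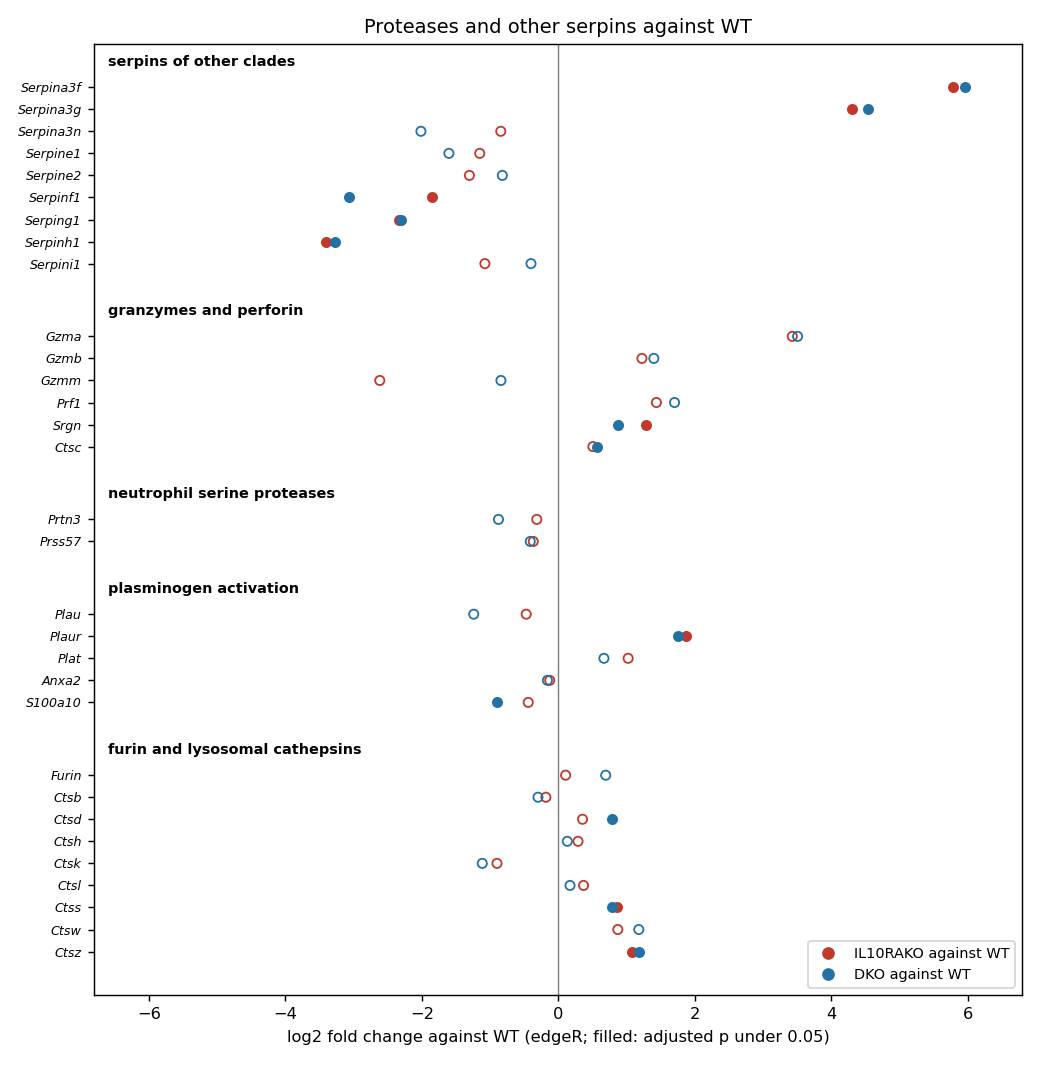
Log2 fold change against WT from the edgeR fit (x axis) of the tested genes of the protease and serpin lists (rows), for IL10RAKO and DKO; filled points passed at an adjusted p under 0.05, open points did not, and a gene on more than 1 list is drawn once. *Serpina3f* and *Serpina3g* lie highest at 4.30 to 5.95, *Plaur* lies at 1.87 and 1.75, and the points of *Gzmb*, *Plau* and *Furin* are open.

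Markers of other cell types moved between the genotypes, and their part in the members' differences was not tested. Against WT, 8.7% of all genes tested were higher and 7.1% lower in IL10RAKO, and 9.23% and 9.22% in DKO. Of 7 dendritic cell markers, 3 (*Xcr1*, *Clec9a* and *Ccr7*) were higher in IL10RAKO than in WT, and in DKO 2 were higher and 1 lower. The summed level of the 7 was 310 to 1407 CPM across WT mice, 1548 to 1932 across IL10RAKO mice and 1031 to 1830 across DKO mice, mostly from *Ccr7* (506, 1530 and 1356 CPM on average). Of 6 mast cell markers, 2 were tested and 1 was higher in each contrast (summed level 10.6 to 33.7, 70.3 to 96.7 and 75.8 to 121 CPM). That gene was *Kit* (22.05, 83.8 and 102 CPM on average), which made up most of the sum, and the other 5 were below 2 CPM on average in every genotype, with *Mcpt1* and *Mcpt2* at 0 reads in IL10RAKO and DKO. Of 5 endothelial markers, 2 were lower in IL10RAKO and 3 in DKO (76.6 to 225, 64.8 to 104 and 49.9 to 86.2 CPM). The 6 B and plasma cell markers (521 to 1825, 395 to 1079 and 482 to 1879 CPM) and the 6 epithelial markers (44.5 to 982, 37.3 to 165 and 132 to 189 CPM) had 0 passing in either contrast in edgeR and DESeq2, with 0 of the former and 2 of the latter at an unadjusted p under 0.05 in IL10RAKO and 0 in DKO.

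Among the genes whose levels ran most like *Serpinb9* over the 12 libraries were *Ifi47*, *Gbp2b*, *Pdcd1lg2* and *Gbp4*. Likeness was the root mean square difference between log2 CPM profiles, each centred on its own mean, and it was 0.339, 0.345, 0.348 and 0.361 log2 units for these 4. *Ifi47*, *Gbp2b* and *Gbp4* encode GTPases known as interferon-inducible, and *Pdcd1lg2* encodes PD-L2, a ligand of PD-1. All 4 genes were low in the 4 WT libraries (-2.55 to -1.46 from their own mean) and high in the 8 *Il10ra*-deficient libraries (0.21 to 1.68). The 4 genes were picked for likeness to *Serpinb9*, itself chosen as higher in the *Il10ra*-deficient genotypes, so this pattern follows from the choice. The 12 libraries also share their genotypes and the scaling, and the pattern is a description only.

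**Figure D5:**
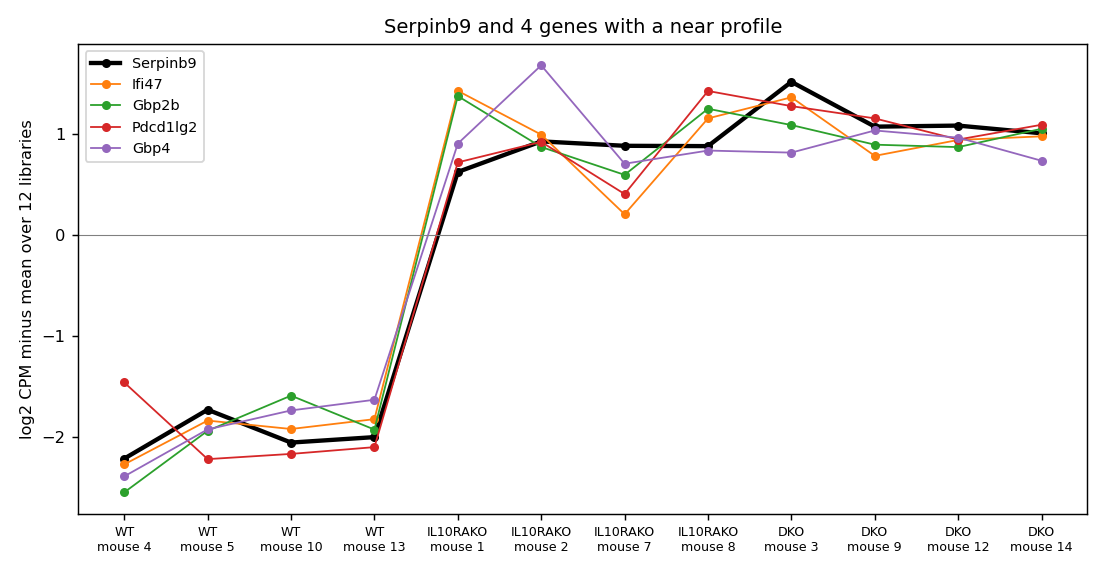
Log2 CPM centred on each gene's own mean (y axis) of *Serpinb9* and 4 genes with a similar profile, across the 12 compared libraries grouped by genotype (x axis); joining lines only guide the eye. All 5 genes lie below 0 in the 4 WT libraries and above 0 in the 8 *Il10ra*-deficient libraries, which follows from how they were chosen.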

How the data were processed

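RNA was sequenced from sorted macrophages of 14 mice. The deposited values were whole-number read counts per gene. The authors made them from SMART-Seq v4 libraries with bcl2fastq 2.20 and STAR 2.5.1b on mm10, per the submitters' processing notes, and edgeR 3.34.0 was named there too; the annotation and the strand setting of counting were not given in the sources used here. The authors also deposited edgeR pseudocounts, scores scaled between libraries, which served only to choose the 12 libraries compared (WT, IL10RAKO and DKO, n = 4 mice each).

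Counts were filtered by filterByExpr (minimum count 10), scaled by TMM and fitted with edgeR 4.0.16 (R 4.3.3, limma 3.58.1) quasi-likelihood tests over 13136 genes, without covariates, with Benjamini-Hochberg adjustment over all genes and a threshold of 0.05. The fit was tested on simulated data. Members, lists and tests were chosen with earlier results of these data known, and the motifs and the sequences shown were chosen after seeing them. Named genes were all members, the tested clade B genes, the 3 genes of each other list with the smallest adjusted p, the best known targets and partners of the members whatever their values, and the 5 nearest profiles, of which 1 is not reported here. Alternatives were DESeq2 1.42.0, other scaling, filter and sample choices and leaving out each mouse. Positions and exon lengths came from GENCODE vM21 and promoter windows from RefSeq.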

Additional observations from a re-analysis of the deposited data

Results flagged for a closer look

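Each group of 4 mice, and the WT group of 5 as well, was examined for a value far from the others. Of these 24 gene and group combinations, 3 stood apart, and chance alone marks about 1 in 20 groups (5%, or 1.20 expected). The WT mice were examined in groups of 4 and of 5, so the 24 are not independent. *Serpinb9* in IL10RAKO mouse 1 was 94.3 CPM, below the next lowest at 113 CPM. *Serpinb9* in DKO mouse 3 was 175 CPM, above the next highest at 130 CPM. *Serpinb1a* in IL10RAKO mouse 8 was 22.3 CPM, below the next lowest at 51.0 CPM. Outside the comparisons, *Serpinb2* in the 1 CCR2KO library was 19.7 CPM, above the highest of the 4 compared WT libraries (6.40 CPM) and of all 5 (10.1 CPM), with no replicate.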

How the results depend on the processing

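Against WT, *Serpinb6a* and *Serpinb8* passed in each of the 19 alternatives in both contrasts, and *Serpinb6b* in all 19 for DKO and 18 for IL10RAKO (all but the WT group of 5). The members' counts of 3 and 3 became 4 and 4 in DESeq2, and 3 to 4 without 1 mouse. *Serpinb9* against WT ranged from 2.51 and 2.93 (library totals without TMM) to 2.94 and 3.29. That scaling moved the median of all genes to -0.38 and -0.32, with 23.8% and 25.9% of calls higher in place of 55.1% and 50.0%, and relative to that median *Serpinb9* stood at 2.89 and 3.25, beside 2.90 and 3.25 with TMM.

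*Serpinb1a* in DKO against WT (0.01) changed sign with library totals (-0.23) and the WT group of 5 (-0.26), and without WT mouse 10 (-0.01), WT mouse 13 (-0.22) or DKO mouse 3 (-0.51). Between DKO and IL10RAKO it was -0.23 without DKO mouse 3, the low end of -0.23 to 0.49 when 1 mouse was left out. *Serpinb2* between them (-0.03) was 0.0125 with library totals and -0.50 to 0.42 when 1 mouse was left out, with 0.42, 0.08 and 0.22 without IL10RAKO mouse 2, DKO mouse 12 or DKO mouse 14. None of these values passed, and the cause was not tested. Over all genes, the 6 calls between DKO and IL10RAKO became 24 in DESeq2 and 4 to 10 when 1 mouse was left out, with 10 without IL10RAKO mouse 2. Calls against WT were 2631 and 3008 in DESeq2, 2735 and 2888 with library totals, 1642 and 1843 with all 5 WT libraries, and 1485 to 2554 and 1691 to 2995 when 1 mouse was left out. No paired analysis was possible because each library came from a different mouse and replicate numbers were given in accession order only. With 4 mice a genotype and 0 to 10 reads of *Serpinb9b* a library, its differences were not detectable at this depth.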
